A study of Mus musculus with 5 samples.

Results

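Collagen genes were followed in the ventricles of CD-1 mouse embryos whose dams had received caffeine or saline in early gestation. Members were all rows of the deposited RefSeq gene table named Col, a number, the letter a and a second number, which gave 44 of 18307 genes. They were split by the type of assembly into 11 fibrillar, 8 basement membrane and 25 other collagens. Pregnant dams of the outbred CD-1 strain received 1 injection a day over E6.5 to E9.5, and the ventricles of their embryos were taken at E10.5. The 3 caffeine libraries came from dams given caffeine at 20 mg/kg, and the 2 vehicle libraries from dams given 0.9% NaCl. Each library was made from ventricles pooled over embryos of shared dams, so it stands for a pool and not for 1 heart. How many embryos or dams entered a pool is not given in the sources used here, and p-values measure the spread between these pools.

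Collagens are extracellular proteins whose chains wind around each other into a rope-like helix. Fibrillar collagens (types I, II, III, V and XI among them) pack into fibrils that carry tension, while type IV collagen forms the sheet-like network of basement membranes. In the embryonic ventricle a basement membrane underlies the endocardium, surrounds cardiomyocytes and lies beneath the epicardium. The space between endocardium and myocardium holds cardiac jelly, and fibrillar collagen is made there and in the cushions by mesenchymal cells and, later, by epicardium-derived fibroblasts.

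Gene totals lay between 21713381 and 25048134 estimated counts per library. All 9 listed cardiomyocyte genes were tested, and their summed level was 40624 and 36787 CPM (counts scaled to library size) in vehicle and 32929 to 33295 CPM in caffeine pools, with a negative log2 fold change for 9 of 9 and none past the test. Listed genes of cushion mesenchyme (7 of 7 tested) summed to 179 and 171 CPM in vehicle pools against 170 to 220 CPM in caffeine pools. Their log2 fold changes were positive for 7 of 7, with a median of 0.19. Listed epicardial genes (6 of 6 tested) summed to 357 and 407 CPM in vehicle pools against 363 to 509 CPM in caffeine pools. They had positive values for 6 of 6, with a median of 0.18. Endocardial and endothelial genes (8 of 8) summed to 1475 and 1586 CPM in vehicle pools against 1328 to 1534 CPM in caffeine pools, with negative values for 7 of 8. Hepatic and yolk sac genes (5 of 7 tested) reached 116 CPM in vehicle replicate 2 against 7.31 to 37.6 CPM elsewhere, and Alb, the albumin gene, was at 0 in 3 libraries and reached 0.706 CPM in caffeine replicate 1. The 5 tested hepatic and yolk sac genes had negative values, but positive values of 0.43 to 1.89 without vehicle replicate 2. Erythroid genes (7 of 7 tested) summed to 12312 and 7039 CPM in vehicle pools against 7545 to 11885 CPM in caffeine pools. Positive values were found for 6 of the 7. No gene of these marker lists passed the test. Of the 2 notochord and floor plate genes with a row, Shh and Foxa1, neither was above 0.0911 CPM. The part of these cell types in the collagen values was not tested, and fewer cells of a type cannot be told apart from less RNA per cell in such pooled tissue.

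Basement membrane chains held the largest share of collagen transcripts. Levels between genes were compared as CPM per kb of the longest annotated transcript. On that scale the basement membrane class made up 58.6 ± 1.45% of the collagen total in vehicle (SD, n = 2) and 55.9 ± 2.92% in caffeine (SD, n = 3). The fibrillar class made up 31.6 ± 0.602% in vehicle (SD, n = 2) and 34.9 ± 2.12% in caffeine (SD, n = 3), and the remaining collagens 9.78 ± 0.845% and 9.23 ± 1.18%. In the single libraries the fibrillar share was 32.0% and 31.2% in vehicle and 36.5%, 35.7% and 32.5% in caffeine. In this share all 3 caffeine libraries lay above both vehicle libraries, caffeine replicate 3 by the smallest margin. The summed fibrillar level itself overlapped, at 287 and 303 CPM per kb in vehicle and 342, 308 and 287 CPM per kb in caffeine. Basement membrane chains took 57.6% and 59.6% of the total in vehicle, and 52.9%, 55.9% and 58.7% after caffeine, with overlap. All collagens together took 0.558 ± 0.0375% of scaled gene counts in vehicle (SD, n = 2) and 0.534 ± 0.0211% in caffeine (SD, n = 3).

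Col4a1, which encodes the alpha-1 chain of type IV collagen, stood first at 195 to 248 CPM per kb over the 5 libraries. It was followed by Col18a1, the multiplexin from which endostatin is cleaved, at 127 to 151 CPM per kb. Col3a1, the fibrillar type III chain of compliant tissue, had 113 to 134 CPM per kb, and Col4a2, the partner of Col4a1, had 114 to 133 CPM per kb. The ranges of these last 3 overlapped, whereas the lowest Col4a1 value lay above the highest Col18a1 value. The next group held Col2a1 (20.4 to 65.6 CPM per kb), Col1a2 (27.4 to 68.9), Col1a1 (22.8 to 56.8), Col4a5 (26.5 to 45.2), Col5a1 (28.6 to 35.3) and Col5a2 (20.2 to 34.3). All 6 ranges overlapped, and none reached the lowest Col3a1 value. Col26a1, Col23a1, Col13a1, Col6a2, Col4a6 and Col6a1 lay between 7.26 and 26.5 CPM per kb. No other collagen exceeded 4.19 CPM per kb in a library.

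**Figure D1:**
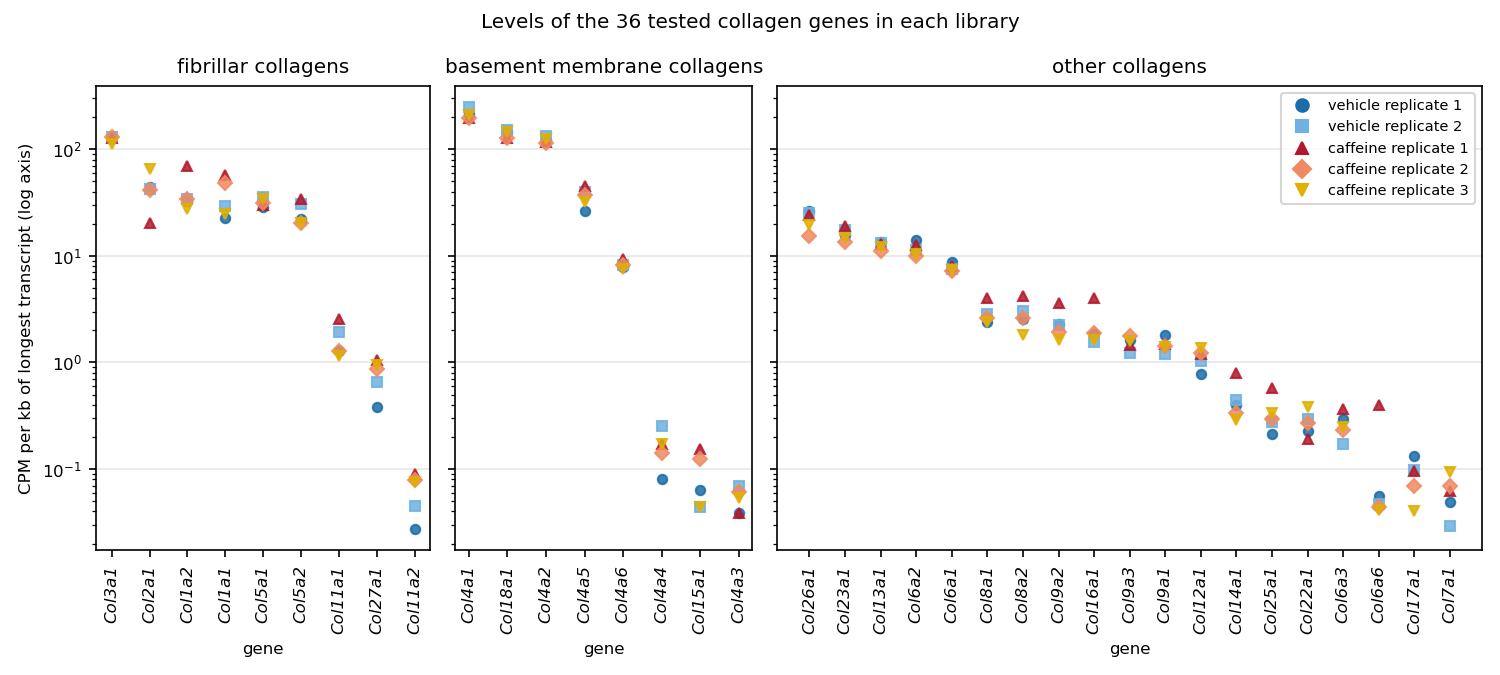
Level of each of the 36 tested collagen genes in CPM per kb of longest transcript (log axis), 1 point per library, with fibrillar, basement membrane and other collagens in separate panels. Col4a1 (195 to 248) and Col18a1 (127 to 151) lead the basement membrane panel, and Col3a1 (113 to 134) leads the fibrillar panel.

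Of the 44 genes, 36 passed the low-count filter and were tested, and 8 did not. The 8 were the fibrillar Col5a3 (1 to 4 counts per library) and Col24a1 (2 to 6 counts), the type VI chains Col6a4 (0 to 3 counts) and Col6a5 (0 to 2.05 counts), Col20a1 (3 to 6 counts), and Col10a1, Col19a1 and Col28a1. Col10a1, the collagen of hypertrophic cartilage, had 1 count in caffeine replicate 2 and 0 elsewhere, and Col19a1 had 3 counts in vehicle replicate 1 and 0 elsewhere. Col28a1 had 1 count in each library. A count of 0 allows a level of up to 0.123 to 0.137 CPM, taking 3 counts as the limit, and covers counting error only.

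No collagen gene passed the test of caffeine against vehicle. At an adjusted p of 0.05 (edgeR quasi-likelihood test, Benjamini-Hochberg over 13829 genes) the count was 0 of 36, where 0.00723% of all tested genes (1 gene) were called. Limma-voom also called 0 of 36, and DESeq2 called 0 collagens. DESeq2 called 0.138% of the 13024 genes to which it gave an adjusted p, which need not include all 36 collagens. At an unadjusted p under 0.05 edgeR had 3 of 36 collagens against 5.20% of all tested genes. Of these, 2 were higher (3.13% of all genes) and 1 was lower (2.07%), while DESeq2 had 3 and limma-voom 4. Vehicle and caffeine libraries were fully separated for 11 of the 36 collagens (30.6%), against 20.4% of all tested genes. They were separated upward in caffeine for 5 (11.2% of all genes) and downward for 6 (9.27%). The log2 fold change, caffeine minus vehicle, was positive for 20 and negative for 16 collagens, where 53.0% of all genes were positive, with a median of 0.05 beside 0.01 over all tested genes. By class, the median was 0.04 for 9 fibrillar, -0.06 for 8 basement membrane and 0.12 for 19 other collagens. After a correction for GC content and transcript length 15 of 36 were positive, the class medians were -0.07, -0.07 and -0.04, and 9 of 36 had an unadjusted p under 0.05, against 7.19% of all genes. When 1 library at a time was left out, the log2 fold change of 19 of the 36 collagens turned sign at least once, and that of 12 more moved by over 1.5 times. The matching counts over all tested genes were not made, so these do not set collagens apart from other genes.

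**Figure D2:**
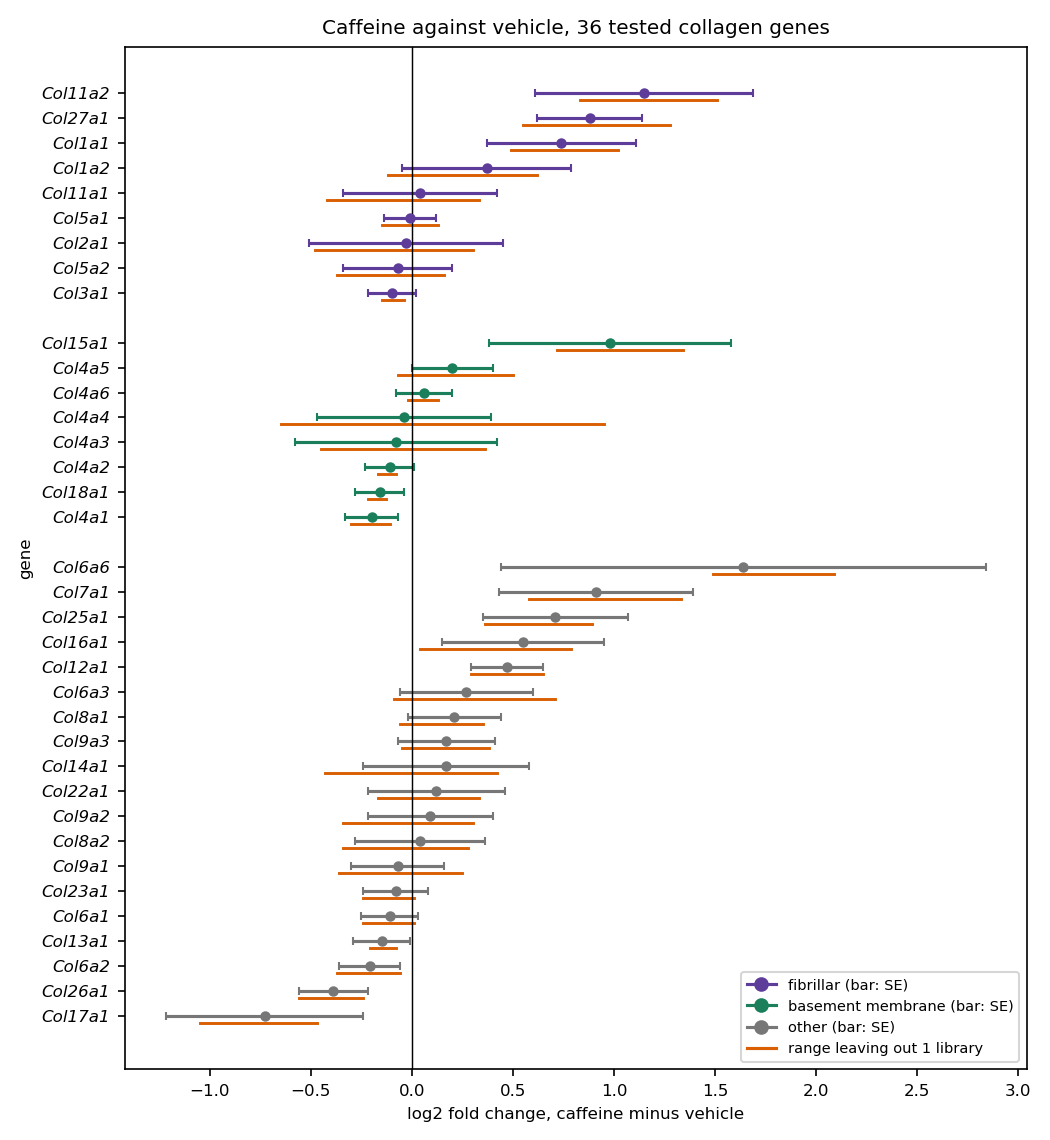
Log2 fold change (caffeine minus vehicle) of the 36 tested collagens on the x axis, with its SE as a bar, and below each the range of the value when 1 library at a time was left out. The most abundant chains, Col4a1, Col18a1, Col4a2 and Col3a1, lie between -0.20 and -0.10, while the widest bars belong to genes of low count such as Col6a6 (1.64, SE 1.20).

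The abundant basement membrane chains had lower mean values in caffeine, none past the threshold. Col4a1 (chromosome 8, 11198423 to 11312826, mm10, minus strand) had 1411 and 1639 CPM in vehicle pools against 1301, 1292 and 1395 CPM in caffeine pools. Its groups did not overlap, although caffeine replicate 3 lay just below vehicle replicate 1, and the log2 fold change was -0.20 (SE 0.13, edgeR adjusted p = 0.999). Col4a2 (chromosome 8, 11312829 to 11449287, plus strand) had 792 and 858 CPM in vehicle pools against 751, 733 and 806 CPM in caffeine pools, so the groups overlapped (-0.11, SE 0.12). Col18a1 (chromosome 10, 77052179 to 77166530) had 815 and 846 CPM in vehicle pools against 712, 711 and 803 CPM in caffeine pools (-0.16, SE 0.12). Caffeine replicate 3 was again the caffeine library nearest to vehicle. The medians of the listed endothelial (-0.11) and cardiomyocyte genes (-0.27) were also negative, and those of cushion mesenchyme (0.19) and epicardium (0.18) were positive. Listed basement membrane partners, such as laminin chains, had a median of 0.21 (0.03 without caffeine replicate 1). The part of these cell types in the type IV and XVIII values was not tested.

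Col4a1 and Col4a2 lie head to head, with 2 bases between their deposited starts, and are known to be transcribed from a shared promoter. The same arrangement joins Col4a4 to Col4a3 (71 bases between starts, chromosome 1) and Col4a6 to Col4a5 (1342 bases, chromosome X). The CCAAT box, a promoter element bound by NF-Y, was searched as CCAAT on both strands in windows from 250 bases before to 50 after each start (RefSeq, GRCm38.p6). Windows were found for 35 of the 44 genes, and 13 of their 38 windows held the letters, against 37.4% of all 32851 windows. The GC box, searched as GGGCGG on both strands, was in 23 of the 38 windows against 35.7% of all, and the TATA sequence TATAAA in 5 of 38 against 13.6%. The 30-base stretches printed here carry a CCAAT match, in capitals, as ATTGG where it lies on the opposite strand. They come from the 3 most abundant basement membrane genes and from 3 other collagens with a match. Those 3 were among 13 whose level in caffeine replicate 1 was at least 1.5 times the mean of the other 4 libraries. Of the 13, Col25a1 also held a match, and Col1a1 and Col14a1 had no window. Windows of Col6a3, Col6a6, Col8a1, Col8a2, Col9a2, Col11a2 and Col15a1 held none. Col1a2 held a second match, centred at -186 from the deposited gene start, that is not printed.
Col4a1, chr8:11312954-11312983, minus strand: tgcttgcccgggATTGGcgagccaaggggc
Col4a2, chr8:11312761-11312790, plus strand: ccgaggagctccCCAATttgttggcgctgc
Col18a1, chr10:77166723-77166752, minus strand: cgcgttggagacATTGGagagaggacgaga
Col1a2, chr6:4505606-4505635, plus strand: cctagccctcccATTGGtggagacgttttt
Col11a1, chr3:114030449-114030478, plus strand: gggaggcctgtgATTGGgtatgaccttcag
Col16a1, chr4:130047715-130047744, plus strand: cggcggtgcaggCCAATggccagtgcctcc
Each type IV stretch lies within the deposited span of the opposite gene of the pair. Measured from the deposited gene start, the centre of the match lay at -77 in both Col1a2 and Col11a1 and at -54 in Col4a2, -143 in Col4a1, -111 in Col16a1 and -208 in Col18a1. A match describes these letters and shows no binding.

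The X-linked pair of type IV chains, which joins basement membranes of smooth muscle and kidney, was less abundant. Col4a5 (chromosome X, 141475419 to 141689235) had 173 and 261 CPM in vehicle pools against 296, 244 and 208 CPM in caffeine pools, a log2 fold change of 0.20 (SE 0.20) that ranged from -0.07 to 0.50 when 1 library was left out. Col4a6 had 51.7 and 55.1 CPM in vehicle pools against 61.9, 54.9 and 50.3 CPM in caffeine pools (0.06, SE 0.14). Vehicle replicate 1 was the low library for Col4a5, and the groups of both genes overlapped. The chains of the adult glomerular network were near the filter, with 8 to 13 counts per library for Col4a3 and 20 to 56 for Col4a4. Col15a1, a multiplexin of muscle and capillary basement membrane, had 8 and 5 counts in vehicle pools against 19, 15 and 5 in caffeine (0.98, SE 0.60, edgeR adjusted p = 0.999).

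Fibrillar collagens differed in how far they varied between libraries. Col3a1 had 748 and 721 CPM in vehicle pools against 712, 721 and 630 CPM in caffeine pools (log2 fold change -0.10, SE 0.12). Col5a1, a chain of the type V collagen that nucleates fibrils, had 240 and 297 CPM in vehicle pools against 251, 263 and 286 CPM in caffeine pools (-0.01, SE 0.13). The highest library was 1.19 times the lowest for Col3a1 and 1.24 times for Col5a1.

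Type I collagen, the main fibril of connective tissue, varied more, 2.49 times between libraries for Col1a1 and 2.51 times for Col1a2. Col1a1 (chromosome 11, 94936270 to 94951856) had 135 and 172 CPM in vehicle pools against 337, 285 and 147 CPM in caffeine pools. Caffeine replicates 1 and 2 were above both vehicle libraries and caffeine replicate 3 lay between them, and the log2 fold change was 0.74 (SE 0.37, edgeR adjusted p = 0.999). Col1a2 (chromosome 6, 4505697 to 4541543) had 176 and 183 CPM in vehicle pools against 368, 183 and 147 CPM in caffeine pools. Here caffeine replicate 1 alone was high, caffeine replicate 2 was level with vehicle replicate 2, and the value of 0.37 (SE 0.42) became -0.12 without caffeine replicate 1. For Col1a1 the value without that library was 0.49.

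Col2a1, the cartilage collagen that is also made in endocardial cushions, had the opposite pattern among the caffeine libraries. It had 228 and 216 CPM in vehicle pools against 104, 213 and 335 CPM in caffeine pools, a 3.22-fold spread with both extremes among the caffeine libraries (log2 fold change -0.03, SE 0.48). Without caffeine replicate 1 the value was 0.30, and leaving out 1 library at a time gave -0.48 to 0.30. Sox9, the transcription factor known to activate Col2a1, had 45.6 and 46.5 CPM in vehicle pools against 44.1, 54.4 and 60.0 CPM in caffeine pools. The same libraries were lowest and highest, but in Sox9 caffeine replicate 1 lay close to vehicle. Among the other listed cushion genes this held for Twist1 and Msx1 and not for Prrx1, Prrx2, Snai2 and Pdgfra. Caffeine replicate 1 was the lowest library for 22.8% of all tested genes. A link between Sox9 and the Col2a1 values was not tested. Col5a2, the second type V chain, had 146 and 201 CPM in vehicle pools against 227, 135 and 134 CPM in caffeine pools (-0.07, SE 0.27; -0.37 without caffeine replicate 1). Col11a1, which shares fibrils with type II collagen, had 9.89 and 14.8 CPM in vehicle pools against 19.5, 9.76 and 8.71 CPM in caffeine pools (0.04, SE 0.38). It did not follow Col2a1 across the libraries: caffeine replicate 1 was its highest library and the lowest for Col2a1.

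Col27a1 and Col11a2, fibrillar chains of cartilage present at low level here, were higher in each caffeine library than in both vehicle libraries. Col27a1 (chromosome 4, 63215412 to 63334990) had 2.92 and 4.96 CPM in vehicle pools against 7.97, 6.66 and 7.13 CPM in caffeine pools. It had the smallest p of all collagens, with a log2 fold change of 0.88 (SE 0.26, unadjusted p = 0.00459, edgeR adjusted p = 0.691), and kept a value of 0.55 to 1.28 when 1 library was left out. The lower of those was reached without vehicle replicate 1. Col11a2 rested on 4 and 6 counts in vehicle pools against 13, 11 and 10 counts in caffeine (1.15, SE 0.54, edgeR adjusted p = 0.978).

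Among the other collagens, Col12a1 and Col26a1 had an unadjusted p under 0.05 and neither passed after adjustment. Col12a1, a fibril-associated collagen with interrupted helices (FACIT), had 9.06 and 11.9 CPM in vehicle pools against 13.7, 14.1 and 15.8 CPM in caffeine pools. All caffeine libraries were above both vehicle libraries, with a log2 fold change of 0.47 (SE 0.18, edgeR adjusted p = 0.924; 0.29 without vehicle replicate 1). Col26a1 (chromosome 5, 136741764 to 136883107) had 73.7 and 69.6 CPM in vehicle pools against 67.1, 42.7 and 54.2 CPM in caffeine pools. Its groups did not overlap, with caffeine replicate 1 just under vehicle, and the log2 fold change was -0.39 (SE 0.17, edgeR adjusted p = 0.949; -0.24 without caffeine replicate 2). Col7a1, the anchoring fibril collagen of skin, had 6 to 19 counts per library (0.91, SE 0.48), and the transmembrane Col25a1 had 1.44 and 1.87 CPM in vehicle pools against 3.86, 1.98 and 2.27 CPM in caffeine pools (0.71, SE 0.36). Without caffeine replicate 1 Col25a1 had 0.36.

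Type VI collagen forms beaded filaments around cells. Col6a1 had 35.8 and 30.7 CPM in vehicle pools against 29.8 to 32.8 CPM in caffeine pools (log2 fold change -0.11, SE 0.14), and Col6a2 had 68.7 and 56.0 against 61.2, 49.3 and 51.2 CPM (-0.21, SE 0.15). Vehicle replicate 1 was highest for both, and without it the values were 0.01 for Col6a1 and -0.06 for Col6a2. Without vehicle replicate 2 Col6a2 had -0.37. Col6a3, the third chain of the common heterotrimer, was far lower at 1.73 to 3.70 CPM, and per kb of longest transcript Col6a2 exceeded it 34.1 to 66.5 times. With the mean length over transcripts the ratio was 17.3 to 33.9. Col6a6 had 12 and 8.91 counts in vehicle pools against 84.0, 8.87 and 8 counts in caffeine. Caffeine replicate 1 was 8.44 times the mean of the other 4 libraries, and without it the gene did not pass the low-count filter.

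The transmembrane Col13a1, a collagen of cell contacts, had 42.3 and 42.0 CPM in vehicle pools against 41.2, 34.6 and 38.4 CPM in caffeine pools (log2 fold change -0.15, SE 0.14). Col23a1 had 76.6 to 107 CPM (-0.08, SE 0.16), and Col17a1, the hemidesmosome collagen, had 5 to 18 counts (-0.73, SE 0.49). Col9a1, a FACIT that coats type II fibrils, had 6.92 and 4.60 CPM in vehicle pools against 5.69, 5.46 and 5.31 CPM in caffeine pools (-0.07, SE 0.23). Col9a2 had 4.77 to 10.6 CPM and Col9a3 3.73 to 5.41 CPM. Of the exonic bases of Col9a3, 7.68% overlap Tcfl5 on the opposite strand, so its count is uncertain. Col14a1, a FACIT of type I fibrils, had 2.60 and 2.87 CPM in vehicle pools against 5.11, 2.19 and 1.86 CPM in caffeine pools (0.17, SE 0.41; -0.43 without caffeine replicate 1). Col16a1 had 9.64 and 8.06 CPM in vehicle pools against 20.8, 9.80 and 8.40 CPM in caffeine pools (0.55, SE 0.40; 0.04 without caffeine replicate 1). The short-chain network collagens Col8a1 (12.1 to 20.6 CPM) and Col8a2 (7.81 to 18.1 CPM) also had caffeine replicate 1 as their highest library. Col22a1, a collagen of tissue junctions, had 1.70 to 3.40 CPM.

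Caffeine replicate 1 stood apart from the other libraries in its collagens, and caffeine replicate 3 did so less clearly, a pattern named after the values were seen. Caffeine replicate 1 was the highest of the 5 libraries for 18 of 36 collagens, against 23.4% of all tested genes. It was the lowest for 2, against 22.8%. In 13 of 36 its level was at least 1.5 times the mean of the other 4 libraries, against 5.84% of all tested genes. With genes of at least 5 CPM on average, the count was 7 of 24 against 2.51% of genes. The 7 were Col1a1, Col1a2, Col8a1, Col8a2, Col9a2, Col11a1 and Col16a1. In caffeine replicate 3 that fold was reached by 1 of the 24, Col2a1 (1.20% of genes). It was reached by 0 of 24 in vehicle replicate 1 (0.454% of genes), vehicle replicate 2 (0.602%) and caffeine replicate 2 (0.157%). Caffeine replicate 3 was in turn the lowest library for 12 of 36, against 22.3% of all tested genes. In 9 of 36 it was as far below the mean of the other 4 libraries, against 4.62% of all tested genes. The same count was 7 of 36 in vehicle replicate 1 (6.42% of genes) and 5 of 36 in vehicle replicate 2 (4.12%). It was 2 of 36 in caffeine replicate 1 (3.38%) and 2 of 36 in caffeine replicate 2 (3.16%). With genes of at least 5 CPM on average, that count was 5 of 24 in caffeine replicate 3 against 1.84% of genes. It was 3 of 24 in vehicle replicate 1 (3.19% of genes) and 1 of 24 in each of vehicle replicate 2 (0.787%), caffeine replicate 1 (1.16%) and caffeine replicate 2 (0.546%). By class, caffeine replicate 1 was the highest library for 6 of 9 fibrillar, 3 of 8 basement membrane and 9 of 19 other collagens. Without it, the median log2 fold change of the collagens was -0.09 in place of 0.05, and that of all genes 0.01. The summed epicardial list was also highest in that library (509 CPM), as were 4 of its 6 genes. Of the others, Wt1 had 50 CPM there against 38.6 to 56.5 CPM, and Upk1b was lowest there (18.4 CPM against 20.4 to 26.7 CPM). The cushion sum of 170 CPM was level with vehicle replicate 2 at 171 CPM. The part of these cell types in the pattern was not tested.

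**Figure D3:**
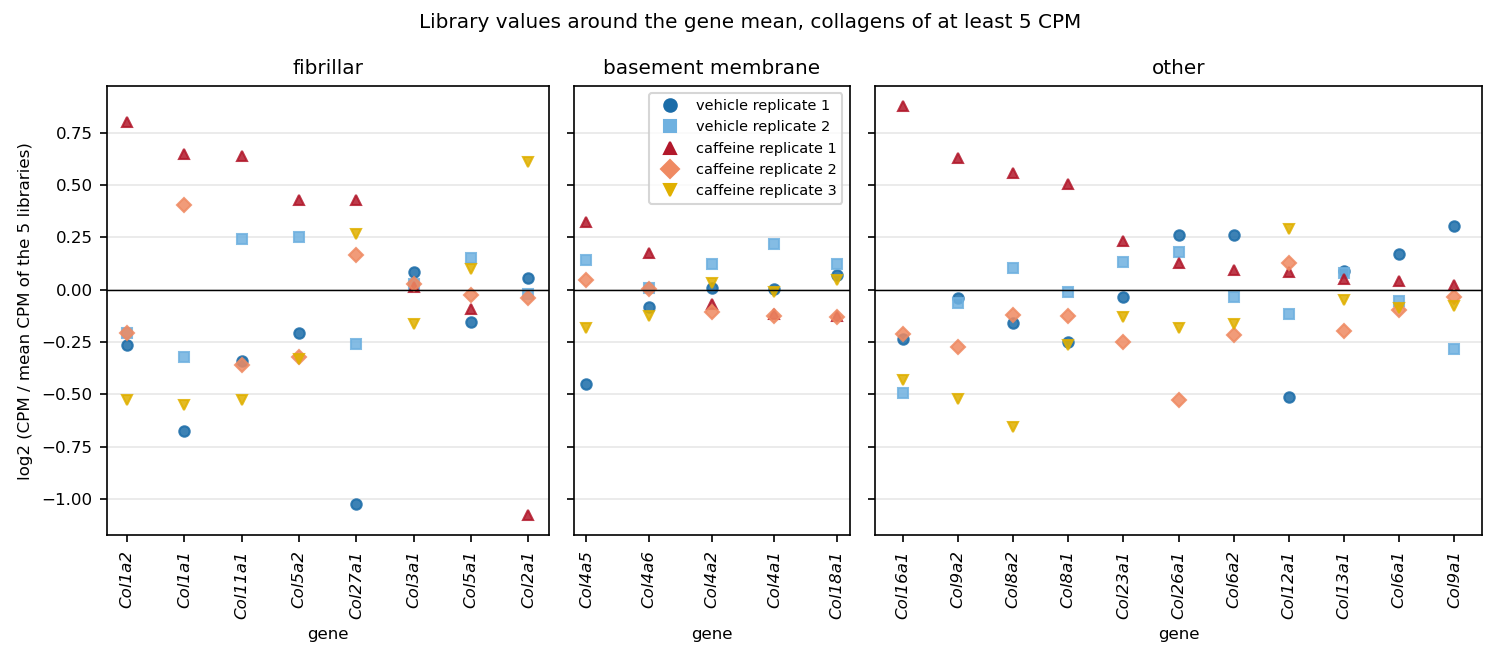
Level of each collagen of at least 5 CPM in each library, as log2 of its CPM over the mean of the 5 libraries (y axis), with 1 symbol per library and 1 panel per class. Caffeine replicate 1 is the top symbol for Col1a1, Col1a2, Col11a1, Col16a1, Col9a2, Col8a1 and Col8a2 and the bottom symbol for Col2a1, while the points of Col3a1, Col5a1, Col4a1, Col4a2 and Col18a1 lie close together.

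Chains that assemble together were compared within each library, per kb of longest transcript. Col4a1 over Col4a2 was the narrowest ratio, at 1.74 and 1.86 in vehicle and 1.69, 1.72 and 1.69 in caffeine. Col6a1 over Col6a2 was also narrow, at 0.625 to 0.724 over the 5 libraries. Col4a5 over Col4a6 was 3.40 in vehicle replicate 1 and 4.20 to 4.86 in the other 4. Type I collagen contains more alpha-1 than alpha-2 chains, but Col1a1 over Col1a2 was 0.692 and 0.849 in vehicle and 0.825, 1.41 and 0.904 in caffeine. Only in caffeine replicate 2 did Col1a1 exceed Col1a2. Col5a1 over Col5a2 ran from 0.872 in caffeine replicate 1 to 1.69 in caffeine replicate 3. Col2a1 over Col1a1, chains of different fibrils, had the widest spread of the 7 pairs plotted, from 0.358 in caffeine replicate 1 to 2.64 in caffeine replicate 3, with 1.96 and 1.46 in vehicle. Dividing by the mean over a gene's transcripts in place of the longest multiplies each ratio by a constant, and moved Col1a1 over Col1a2 from 0.936 to 1.34 on average, so its position relative to 1 rests on the length used.

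**Figure D4:**
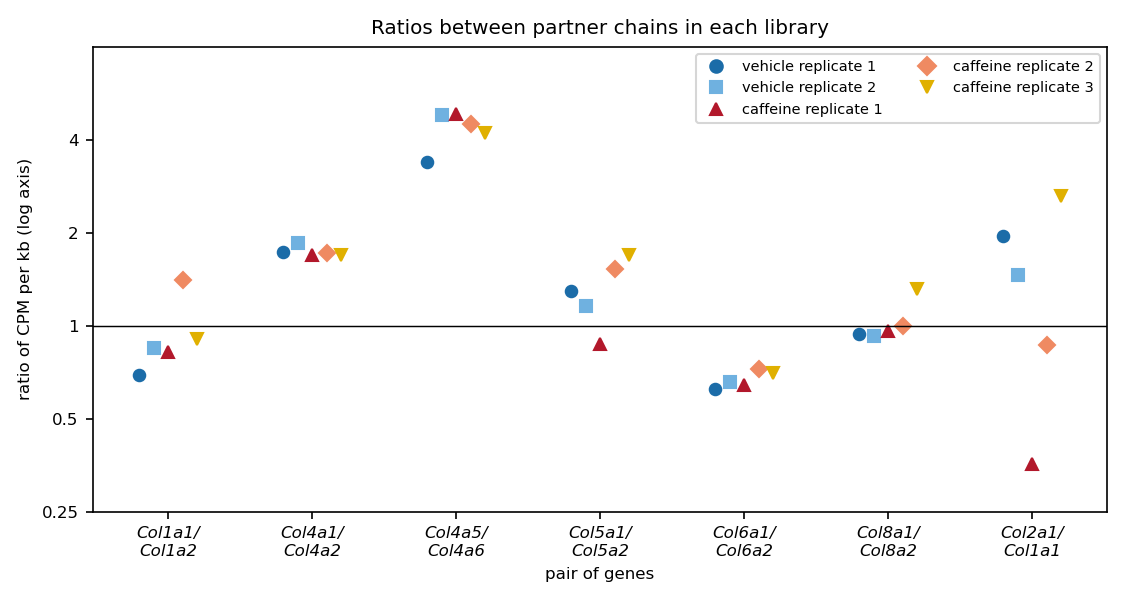
Ratio of CPM per kb between 2 collagen genes (y axis, log scale) in each library for 7 pairs. Col4a1 over Col4a2 stays between 1.69 and 1.86, whereas Col2a1 over Col1a1 runs from 0.358 to 2.64, both ends being caffeine libraries.

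The same comparison was made for transcripts. The RefSeq transcripts included 51 of collagens, of which 42 were tested, and 0 passed at an adjusted p of 0.05 (edgeR), as did 0% of all 18418 tested transcripts. At an unadjusted p under 0.05 there were 3, the single transcripts of Col27a1 (NM_025685), Col12a1 (NM_007730) and Col1a1 (NM_007742), against 7.36% of all. Of 6 genes with several transcripts 5 could be tested for a shift between them, and 0 passed, at adjusted or unadjusted p of 0.05, where 3.07% and 17.7% of 2897 genes did. Simes adjustment also passed 0. Col18a1 has a longer form, NM_009929, and a form from an internal start, NM_001109991, and the former held 98.4% to 99.5% of the gene's estimated counts in all 5 libraries (usage adjusted p = 0.588, edgeR diffSpliceDGE). For Col6a3, NM_001243009 held 77.9% to 100% (usage adjusted p = 0.760, edgeR diffSpliceDGE). For Col4a5, NM_001163155 held 62.4% and 73.2% in vehicle and 66.8%, 63.4% and 69.3% in caffeine (usage adjusted p = 0.901, edgeR diffSpliceDGE). In Col2a1, NM_031163 held 64.0% to 70.8%, while the gene itself varied 3.22-fold between libraries. Estimated counts of transcripts that share most exons carry an assignment error that these tests do not include.

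Genes that fold, process, link, bind and degrade collagen were examined as lists. None of the 70 tested members passed at an adjusted p of 0.05 (edgeR), against 0.00723% of all genes, and 4 had an unadjusted p under 0.05, against 5.20% of all genes. All 4 were higher in caffeine, against 3.13% of all genes. When 1 library at a time was left out, 40 of the 70 values turned sign at least once and 24 more moved by over 1.5 times. Here too no matching count over all tested genes was made. Of 20 folding and modifying genes 14 had positive and 6 negative values, with a median log2 fold change of 0.05. P4ha3, a prolyl 4-hydroxylase subunit, had 5.31 and 5.51 CPM in vehicle pools against 13.2, 8.08 and 8.62 CPM in caffeine pools (0.88, SE 0.24, edgeR adjusted p = 0.606). All 3 caffeine libraries were above vehicle, and leaving out 1 library gave 0.63 to 1.02. Mia3, which loads procollagen into transport carriers, had -0.22 (SE 0.13), and the chaperone Fkbp10 had -0.17 (SE 0.12). The abundant collagen chaperone Serpinh1 had 1146 to 1312 CPM with a value of 0.00 (SE 0.12).

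Of 7 tested procollagen processing genes 5 were positive and 2 negative (median 0.19; 0.12 without caffeine replicate 1), led by the C-proteinase Bmp1 (0.22, SE 0.15) and the N-proteinases Adamts3 (0.25, SE 0.26) and Adamts2 (0.23, SE 0.30). Of 5 tested cross-linking genes 4 were positive (median 0.18). Loxl1, a lysyl oxidase relative, had 51.8 and 47.5 CPM in vehicle pools against 84.0, 66.4 and 59.0 CPM in caffeine pools (0.49, SE 0.16, edgeR adjusted p = 0.832), all caffeine libraries being higher. Lox itself had 2.97 and 3.32 CPM in vehicle pools against 11.2, 4.73 and 2.77 CPM in caffeine pools (0.99, SE 0.58; 0.26 without caffeine replicate 1), and Loxl2 had 0.18 (SE 0.14). Of 9 tested collagen receptors 8 were positive (median 0.17; 0.09 without caffeine replicate 1), with the endocytic receptor Mrc2 at 0.36 (SE 0.16; 0.21 without caffeine replicate 1), the discoidin receptor Ddr1 at 0.17 (SE 0.12) and the integrin Itgb1 at -0.16 (SE 0.13).

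Of 8 tested genes of degradation and its inhibitors 3 were positive and 5 negative (median -0.06; -0.13 without caffeine replicate 1), with Ctsk at -0.55 (SE 0.50), Mmp14 at -0.14 (SE 0.14) and Mmp2 at -0.14 (SE 0.15). The 9 fibril-associated proteoglycans and glycoproteins had 5 positive and 4 negative values (median 0.02). Of these, 7 were highest in caffeine replicate 1, and without it the median was -0.24. The smallest p belonged to Postn at -0.17 (SE 0.17), Thbs1 at -0.12 (SE 0.14) and Fmod at 0.22 (SE 0.40). Of 12 basement membrane partners 8 were positive and 4 negative (median 0.21; 0.03 without caffeine replicate 1). Lama5, a laminin chain, had 50.5 and 64.8 CPM in vehicle pools against 96.1, 65.8 and 78.8 CPM in caffeine pools (0.48, SE 0.18, edgeR adjusted p = 0.912; 0.31 without vehicle replicate 1). Nid1, which bridges laminin and type IV collagen, had 308 and 377 CPM in vehicle pools against 301, 284 and 285 CPM in caffeine pools (-0.24, SE 0.13; -0.38 without vehicle replicate 1 and -0.12 without vehicle replicate 2). Agrn, which binds laminin, had 0.26 (SE 0.14; 0.16 without caffeine replicate 1). The medians of these lists stood beside 0.01 over all tested genes.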

How the data were processed

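The authors deposited estimated counts, recognised by values that are not whole and column sums that differ between libraries. Their tables name RefSeq and Ensembl release 71 transcripts as annotation. TopHat, Partek and the builds mm10 and GRCm38 appear in the submitters' processing notes without version or role. Strand use in counting is not given by those notes. The Ensembl transcript table was not used here.

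Estimated counts were rounded. Low-count genes were removed with filterByExpr (minimum count 10), TMM factors of 0.970 to 1.02 set the library sizes, and a robust two-sided quasi-likelihood fit of all genes was made with edgeR 4.0.16 (R 4.3.3), with Benjamini-Hochberg adjustment and a threshold of 0.05. The SE was derived by dividing the log2 fold change by the root of the F statistic. CPM used the TMM-scaled totals. Transcript shifts were tested with edgeR's diffSpliceDGE. Printed ends are the deposited stop minus 1. Lengths and GC content came from GENCODE M21 (GRCm38), matched for 44 of 44 collagens and 99.4% of genes. Steps were tested on simulated data.

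Members, the 7 pathway lists, the 7 marker lists and the tests were chosen with earlier results of these data known. Named genes were 20 chains given whatever their result, the 6 collagens with the smallest p and the 3 members of each pathway list with the smallest p, and Sox9, Serpinh1, Col6a6, Col16a1 and others beyond these were chosen after their values were seen. The alternatives were other scalings, filters and tools (DESeq2 1.42.0, limma-voom 3.58.1), Ensembl counts, a replicate block, a spline correction for GC content and length, an adjusted p of 0.1, and leaving out each library.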

Additional observations from a re-analysis of the deposited data

How the results depend on the processing

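The count of 0 collagen genes past the threshold held under every alternative except the replicate number as a block, where 1 passed, Col1a1 (log2 fold change 1.02, edgeR adjusted p = 1.14e-06; 0.74 and 0.999 without the block). Replicate number 3 exists only in caffeine, so with the block the contrast rests on replicates 1 and 2 of both groups. Leaving out caffeine replicate 3 without a block also gave 1.02 for Col1a1, which did not pass there (edgeR adjusted p = 0.125). The labels give shared numbers but no shared litter or batch, and the numbers were therefore not taken as pairs. Deviations from the group mean correlated at -0.022 and 0.131 between same-numbered libraries. With 2 vehicle libraries these deviations mirror each other, so the correlations cannot decide whether the numbers are pairs. Over all genes the count went from 1 to 52 with the block, 6 with no low-count filter, 18 with DESeq2, 2 on Ensembl counts and 0 with the GC content and length correction. Leaving out 1 library gave 0 to 18 genes, namely 0 and 8 when vehicle replicate 1 or 2 was dropped and 18 and 2 when caffeine replicate 1 or 2 was dropped, with 0 collagens each time. Collagen transcripts and transcript usage stayed at 0 in all alternatives run. Leaving out 1 library, the fibrillar median ran from 0.01 to 0.33, that of the basement membrane from -0.18 to 0.22, both highest without vehicle replicate 2, and that of the other collagens from -0.13 without caffeine replicate 1 to 0.28 without caffeine replicate 3. Of the tested collagens, 10 of 34 changed sign without caffeine replicate 1 and 7 of 36 with the GC content and length correction. Sign changes were not counted over all genes. Collagen transcripts have a median GC content of 56.0% against 49.8% for all tested genes, and with that correction Col4a1 had -0.36. At an unadjusted p under 0.05 the block had 11 of 36 collagens, against 5.84% of all genes. With the filter of 5 CPM the median of the other collagens was -0.07. With no scaling the median of all genes was 0.07. With mean transcript lengths the ratio of Col4a1 to Col4a2 went from 1.74 to 2.26, that of Col4a5 to Col4a6 from 4.36 to 3.55 and that of Col6a1 to Col6a2 from 0.670 to 1.00. Causes of the other changes were not tested. Depth limits the 12 tested collagens under 5 CPM.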

Other observations

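The pathway genes were also compared by library, a comparison chosen after the values were seen. Of the 70 tested pathway genes, 13 had at least 1.5 times the mean of the other 4 libraries in caffeine replicate 1, against 5.84% of all tested genes. As far below was 1 (Pcolce2), against 3.38% of all tested genes. The 13 were spread over all 7 lists, with 4 of the 9 fibril-associated genes, the small leucine-rich proteoglycans Lum (11.3 CPM against 2.31 to 4.96), Dcn (55.2 CPM against 21.9 to 36.7), Fmod (41.3 CPM against 15.7 to 25.2) and Bgn (153 CPM against 88.9 to 112). Smoc1, a matricellular protein of basement membranes, had 14.0 CPM against 4.90 to 7.83 CPM. Of the 42 tested cell type markers, 2 were as high there, Prrx1 (5.40 CPM against 2.69 to 3.67) and Aldh1a2, the retinoic acid enzyme of epicardium (52.2 CPM against 21.5 to 33.9). In the same library 5 markers were as far below, against 3.38% of all tested genes. Of these, Myl7 (1177 CPM against 1703 to 2045) and Msx1 (7.35 CPM against 9.70 to 15.5) were lowest there. The others were Ttr, Apoa2 and Hnf4a, which were highest in vehicle replicate 2 and not lowest in caffeine replicate 1.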
